A study of Mus musculus with 2 samples.

Results

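Malat1 and Neat1 are neighbouring genes for long noncoding RNAs that stay in the nucleus, and the 2 regions described here are the stretches of mouse chromosome 19 where RNA polymerase II (Pol II) was enriched over them. In a list of all 42358 regions enriched in both libraries of the series, the Neat1 region ranked 3 and the Malat1 region ranked 10 by read level, and that ranking is how they were chosen. Their levels are therefore given as a description, with no test against background. On the mm8 build, the Malat1 region is chr19:5792501-5806500 (14 kb, 28 windows of 500 bp) and the region of Neat1 and its neighbourhood from chr19:5809001-5853500 (44.5 kb, 89 windows). Both genes lie on the minus strand, so each is transcribed toward lower coordinates and its 5′ side is the side of higher coordinates. The gene names and the strand were given with the regions. No annotation of mm8 was used here, so exons and annotated ends could not be placed. A gene table of the GRCm38.p6 build, used only for the order of genes, lists Malat1 (gene ID 72289), the small RNA Mascrna (109146451) within Malat1, Neat1 (66961) and Frmd8 (67457) in that order along the chromosome.

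Malat1 RNA is one of the most abundant noncoding RNAs of mammalian nuclei. It gathers at nuclear speckles, bodies rich in splicing factors, and its 3′ end is cut to release Mascrna, a small RNA that resembles a tRNA. Neat1 RNA is the scaffold of paraspeckles, nuclear bodies that form where it is transcribed, and a short and a long form begin at the same start. Pol II makes both RNAs, and ChIP-seq (chromatin immunoprecipitation and sequencing) reads how much Pol II is crosslinked along each gene, not how much RNA is present.

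The series holds 2 libraries from mouse embryonic fibroblasts (cells of embryonic connective tissue grown in culture), kept in DMEM with 10% serum, with no treatment or genotype named. Both were made with the antibody 8WG16 (RNA Pol II), which recognises the heptad repeats at the tail end of the largest subunit of the enzyme. They form 1 group and are called library 1 and library 2. Library 1 was cut from a gel at 150 to 350 bp, and the slice for library 2 spanned 150 to 300 bp, so slice, sequencing run and sample cannot be told apart. No separate cultures are named, so the spread between the libraries may be technical. Whether the cells carry fibroblast markers was not checked here, since that needs gene positions on mm8. Library 1 held 17548967 and library 2 held 10941174 nuclear reads after each start on each strand was counted once. RPM means reads per 1000000 of these. The background was 0.389 RPM per kb in library 1 and 0.236 RPM per kb in library 2. No input was analysed here. All Poisson, binomial and Wilson intervals are 95% intervals and cover counting error only, because none includes a spread between replicates. Reads amplified by PCR are not independent molecules, so the counting error may itself be larger than these intervals show.

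The start of Malat1 is shown because the block of Pol II described below begins with a sharp step on the 5′ side of this gene. The RefSeq promoter window, 250 bases before to 50 after the start, is at chr19:5802623-5802922 on GRCm38.p6, minus strand. That build differs from the one of the reads, and no position was carried from one to the other. Capitals mark the first 50 transcribed bases.
Malat1: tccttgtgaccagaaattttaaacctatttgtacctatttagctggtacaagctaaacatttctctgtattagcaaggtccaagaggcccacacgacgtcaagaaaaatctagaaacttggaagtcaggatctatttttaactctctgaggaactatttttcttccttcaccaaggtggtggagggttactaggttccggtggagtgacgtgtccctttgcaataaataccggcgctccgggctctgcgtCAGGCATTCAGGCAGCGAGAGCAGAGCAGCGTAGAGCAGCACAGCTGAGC
It holds none of the 4 motifs searched on both strands, which do not overlap each other. These were TATAAA, present in 13.6% of 32851 promoter windows of the same length, CCAAT (37.4%), GGGCGG (35.7%) and TGACTCA (5.20%). Its G and C content was 47% against a median of 52.7%. The promoter table matched 1 of the 2 genes, and Neat1 is named only.

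The Malat1 region had 372 RPM in library 1 (exact Poisson interval 363 to 381) and 859 RPM in library 2 (842 to 877), a mean of 616 ± 344 RPM (SD, n = 2). Per length this was 26.6 RPM per kb in library 1 and 61.4 in library 2, 68.4-fold and 260-fold over the background of each. The Neat1 region had more reads in all, spread over a longer stretch. It had 739 RPM in library 1 (726 to 752) and 1259 RPM in library 2 (1238 to 1280), a mean of 999 ± 367 RPM (SD, n = 2). Per length it had 16.6 and 28.3 RPM per kb, 42.7-fold and 120-fold over background. In each library the Malat1 region was thus the denser one and the Neat1 region the one with more reads. The order by density depends on the bounds. From the 5′ edges defined below, library 1 had 38.3 RPM per kb over 9 kb of Malat1 and 38.7 over 10 kb of Neat1. In library 2 these were 88.4 and 63.6 RPM per kb. Of all reads on chromosome 19, 4.004% in library 1 and 6.88% in library 2 lay in the 2 regions. Within the gene-rich megabase from 5000001 to 6000000 they held 49.9% and 57.9% of the reads and 116 of the 537 windows called in both libraries.

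By density, Malat1 came 2nd and Neat1 came 8th among the 734 regions called in both libraries that are at least 10 kb wide, whose median was 2.64 RPM per kb in library 1 and 4.95 in library 2. Just below Malat1 in the ranking by total level, and so outside the 10 regions with the most reads, lay chromosome 9 from 66816501 to 66850500 with 603 ± 389 RPM (SD, n = 2). The wide regions closest to Malat1 in log2 RPM per kb of the 2 libraries lay on chromosome 5 from 137344001 to 137357500 (21.4 and 56.7 RPM per kb, distance 0.33) and on chromosome 11 from 86390001 to 86406500 (18.4 and 47.5, distance 0.65). The 3rd was on chromosome 3 from 145582001 to 145597500 (16.3 and 34.8, distance 1.08). For Neat1 they were chromosome 1 from 164052001 to 164065000 (15.9 and 30.0 RPM per kb, distance 0.10), chromosome 5 from 143159501 to 143173500 (15.1 and 28.3, distance 0.14) and chromosome 11 from 94748501 to 94772500 (14.8 and 28.2, distance 0.16). Malat1 and Neat1 were 1.31 apart on this measure. These distances rest on 2 libraries, and no region near Malat1 was as close as those near Neat1.

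**Figure D1:**
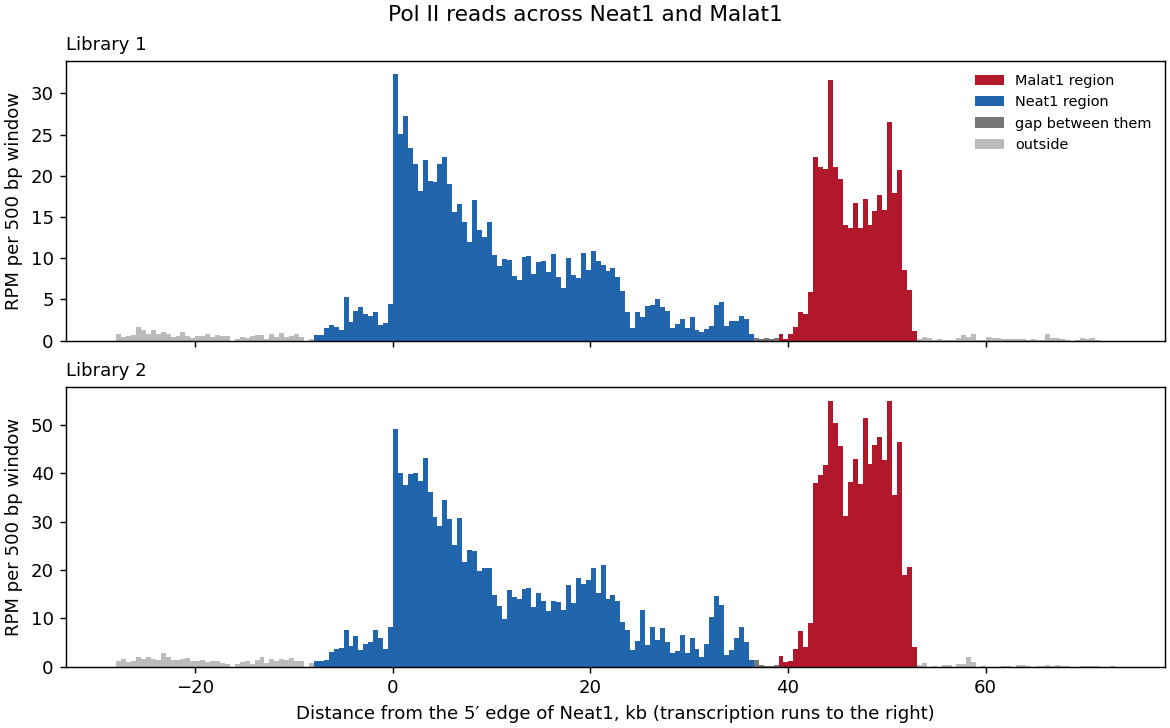
Level of Pol II in RPM per 500 bp window (y axis, starting at 0, each library on its own scale) against the distance from the 5′ edge of Neat1 in kb (x axis), with transcription to the right and 1 bar per window. Neat1 is highest in the window inside its 5′ edge (32.3 RPM in library 1 and 49.1 in library 2) and lower further on. Malat1, whose 5′ edge lies 42.8 kb further on, stays high over about 9 kb.

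Almost every window of the regions was enriched. Windows were called in each library by a Poisson test (exact and one-sided) at a Benjamini-Hochberg adjusted p under 0.01. Of all 4308660 windows tested, 2.90% were called in both libraries (3.41% in library 1 and 9.02% in library 2). In the Malat1 region 27 of 28 windows were called in both, and in the Neat1 region 89 of 89. The regions were defined by these calls, so the counts describe their extent only. The one Malat1 window not called in library 1 began at 5805501 and had 3 reads there and 10 in library 2. Set against a local background, the highest of the genome mean and the means over 50 kb and 200 kb, 19 Malat1 windows and 20 Neat1 windows were called in both. Over the genome 24998 windows were called in both this way, against 124740 without a local background. The local means include the reads of the regions themselves, so a wide region raises its own background.

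The genes were separated by a gap of 2.5 kb, from 5806501 to 5809000, in which Pol II was far lower than in either region. It held 24 reads in library 1, or 0.547 RPM per kb (0.350 to 0.814), and 29 reads in library 2, or 1.06 RPM per kb (0.710 to 1.52). This was 1.41-fold over background in library 1, whose interval includes the background of 0.389, and 4.49-fold in library 2, whose interval lies above the background of 0.236. The gap had 1.89% ± 0.23 of the density of the Malat1 region and 3.52% ± 0.32 of that of the Neat1 region (SD, n = 2). Of its 5 windows, 4 had 2 to 6 reads in each library. The window next to Neat1, from 5808501, was called in library 2 only, where it had 16 reads against 6 in library 1. The bounds were set where calls end, so a low gap follows in part from how the regions were made.

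Outside the regions the sides differed. The 20 kb beyond the 3′ side of Malat1 had 0.453 RPM per kb in library 1 and 0.452 in library 2, with 1 of 40 windows called in both. The 20 kb beyond Neat1, toward Frmd8, had 1.23 RPM per kb in library 1 (1.12 to 1.35) and 2.57 in library 2 (2.36 to 2.79), with 14 of 40 windows called in both. The intervals of the 2 sides do not overlap in either library. The level past Malat1 was the lower one, though in library 2 its interval (0.368 to 0.551) lay above background and 4 of the 40 windows were called there. Annotated genes in these stretches could not be placed on mm8.

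To describe the genes in the direction of transcription, the 5′ edge was taken in each library as the point, in steps of 100 bp, with the largest fall in reads from the 500 bp inside to the 500 bp outside. It lay at 5802800 for Malat1 in both libraries. For Neat1 it lay at 5845500 in library 1 and at 5845600 in library 2, and distances below are from the mean, 5845550. At the Malat1 edge the level went from 30.5 RPM per 500 bp inside to 6.15 outside in library 1 and from 52.6 to 11.3 in library 2, folds of 4.96 and 4.64. At the Neat1 edge it went from 32.3 to 4.44 RPM in library 1 and from 46.6 to 5.03 in library 2, folds of 7.27 and 9.27. By the largest fall in reads, both regions therefore had a 5′ step that the 2 libraries placed within 100 bp of each other. By the largest ratio instead, the Malat1 edge lay at 5802900 in library 1 and at 5804900 in library 2. The Neat1 edge then lay at 5845600 in both. With all reads kept, the folds at the mean edges averaged 9.01 ± 0.52 for Malat1 against 4.80 ± 0.23 with starts collapsed (SD, n = 2). For Neat1 they averaged 17.7 ± 2.9 against 10.4 ± 0.78 (SD, n = 2). Found again with all reads kept, the Neat1 edge lay at 5845500 in both libraries, with folds of 12.6 in library 1 and 8.91 in library 2.

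Malat1 had a broad block of Pol II with a matching far edge. The largest rise on the 3′ side lay at 5793900 in both libraries, 8.9 kb from the 5′ edge, where the level changed 4.89-fold over 500 bp in library 1 and 3.56-fold in library 2. From the 5′ edge to 9 kb the gene held 92.7% of the reads of the region in library 1 and 92.6% in library 2 (92.6% ± 0.03, SD, n = 2). Upstream of the edge lay 4.99% and 3.94%. By 10 to 11 kb from the 5′ edge, the level was down to 0.684 RPM per kb in library 1 and 2.28 in library 2. The block thus had a step at each end.

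Within the block, Malat1 was higher toward both ends than in its middle, by stretches of 3 kb. Over 0 to 3, 3 to 6 and 6 to 9 kb the density was 46.7, 30.0 and 38.3 RPM per kb in library 1 and 92.7, 83.4 and 89.2 in library 2. The first 3 kb stood 1.22-fold over the last in library 1 and 1.04-fold in library 2 (1.13 ± 0.13, SD, n = 2). The window with the highest mean began at 5801001, 1.3 to 1.8 kb into the gene, with 31.7 RPM in library 1 and 55.0 in library 2. The next began at 5795001, near the 3′ end, with 26.6 and 54.9 RPM, and the third at 5800501 with 21.1 and 50.4 RPM. The window with the lowest mean between the 2 highest, from 5799501, had 14.0 RPM in library 1 and 31.2 in library 2. The highest window of the region was 2.13-fold over its median window in library 1 and 1.44-fold in library 2. Which end held the highest window depended on the counting. With all reads kept it was the window from 5801001 in library 1 (53.2 RPM) and the one from 5795001 in library 2 (101 RPM).

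Neat1 had a different shape, highest next to its 5′ edge and lower further along the gene, though not evenly. The first window inside the edge, from 5845001, was the highest of the region in both libraries, with 32.3 RPM in library 1 and 49.1 in library 2. It stayed the highest with all reads kept (58.7 and 80.1 RPM). The edge was set by the largest fall in these same reads, which favours a high window just inside it. From 0 to 5 kb the density was 45.8 RPM per kb in library 1 (44.4 to 47.3) and 76.8 in library 2 (74.5 to 79.1). From 5 to 10 kb it was 31.7 and 50.5 RPM per kb. It then changed less, with 18.7 and 28.6 RPM per kb from 10 to 15 kb and 17.4 and 29.2 from 15 to 20 kb. Within these stretches and beyond, the level also rose. The lowest window before the next summit, from 5828001, had 6.44 and 11.7 RPM. That summit, further along the gene from 5825001, had 10.9 and 20.5 RPM. The first 5 kb stood 2.45-fold and 2.68-fold over the stretch from 10 to 15 kb and 2.63-fold over the stretch from 15 to 20 kb in each library. The shoulder ended between 22 and 25 kb. Per kb the level was 17.0 and 28.4 RPM at 22 to 23 kb, 9.86 and 17.6 at 23 to 24 kb, and 4.50 and 8.77 at 24 to 25 kb.

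**Figure D2:**
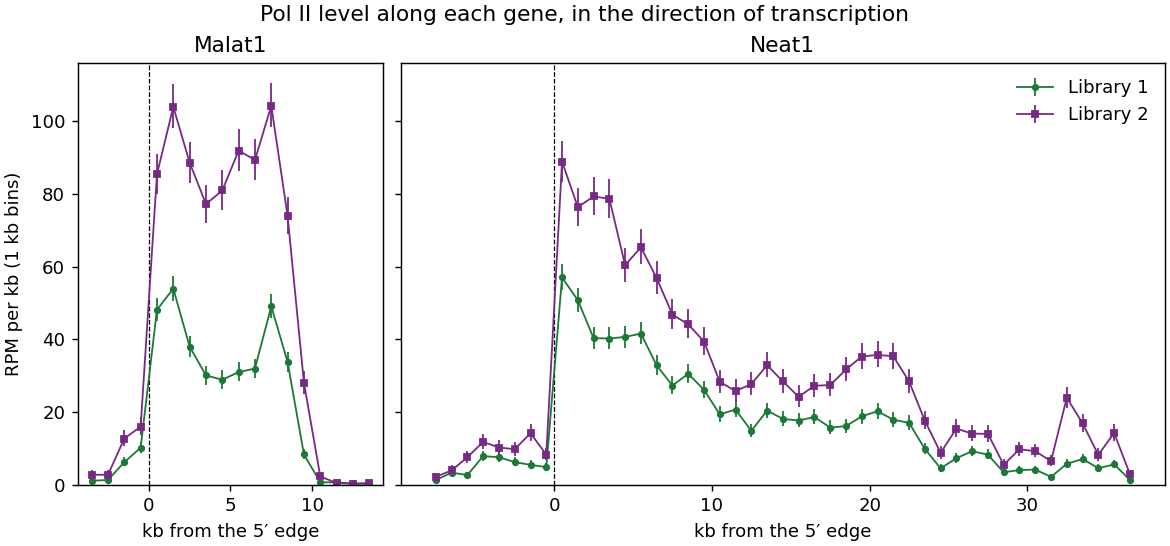
Density of Pol II in RPM per kb in bins of 1 kb (y axis, starting at 0) against distance from the 5′ edge (dashed line at 0) for Malat1 (left) and Neat1 (right), library 1 as circles and library 2 as squares, with bars for exact 95% Poisson intervals. Malat1 is highest at 1 to 2 kb and again at 7 to 8 kb. Neat1 goes from 57.0 and 88.9 RPM per kb in its first kb to 19.4 and 28.3 at 10 to 11 kb. It then varies, with 20.2 and 35.7 at 20 to 21 kb, and falls after about 22 kb.

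The first part of the gene held the largest share of the Neat1 region's reads. From the 5′ edge to 10 kb the gene held 52.4% of them in library 1 (Wilson interval 51.6 to 53.3%) and 50.6% in library 2 (49.7 to 51.4%). From 10 to 24 kb it held 33.2% and 32.3%. The remaining 12.55 kb on the 3′ side, down to the gap, held 9.07% and 11.8% at 5.34 and 11.8 RPM per kb. These were not even. By the largest difference in reads the Neat1 region had no single 3′ edge, since that rise lay at 5835200 in library 1 (1.957-fold) and at 5812300 in library 2 (3.87-fold). By the largest ratio the 3′ edge lay at 5814300 in library 1 and at 5812000 in library 2. A local summit from 5812501 reached 4.33 RPM in library 1 and 14.6 in library 2, and the lowest window between it and the next summit, from 5814001, had 1.03 and 2.01 RPM. Upstream of the edge, toward Frmd8, 7.95 kb held 5.31% and 5.40% of the reads at 4.94 and 8.55 RPM per kb. Its summit, from 5850001, had 5.30 and 7.68 RPM. The part of the Malat1 region upstream of its edge had a like density, 5.02 and 9.14 RPM per kb over 3.7 kb. In the first kb upstream the level was 10.2 RPM per kb in library 1 and 15.99 in library 2 for Malat1, against 4.84 and 8.32 for Neat1. From 2 to 3 kb upstream it was 1.31 and 2.74 for Malat1 against 6.21 and 9.78 for Neat1.

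The profiles of the libraries were alike in both regions, with differences in some parts of each. Across the 89 windows of Neat1, Pearson's r between the RPM of the libraries was 0.97 and Spearman's rho was 0.95. Across the 28 windows of Malat1, Pearson's r was 0.94 and Spearman's rho was 0.86. Windows of 1 region share their library and mappability and are not replicates, so these have no p. Divided into 5 equal parts from the 5′ side, Malat1 had 29.0% of its reads in the second part in library 1 (27.9 to 30.1%) and 22.8% in library 2 (21.9 to 23.6%). In the fourth part it had 24.8% (23.8 to 25.9%) and 30.6% (29.7 to 31.5%). These intervals do not overlap. Library 1 thus had relatively more Pol II in the second part of Malat1 and library 2 more in the fourth, while the intervals of the other parts overlap. For Neat1 the intervals overlap in the first part and in the second (44.6% and 43.2%). They do not overlap in the other parts. The third part held 21.9% in library 1 (21.2 to 22.6%) and 19.95% in library 2 (19.3 to 20.6%). The fourth held 15.4% (14.80 to 16.04%) and 16.7% (16.06 to 17.3%), and the fifth, nearest the gap, 5.42% (5.04 to 5.82%) and 7.93% (7.49 to 8.39%).

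Both regions had more RPM in library 2, by unequal amounts. The ratio of library 2 to library 1 was 2.31 for Malat1 (exact conditional binomial interval 2.24 to 2.38) and 1.70 for Neat1 (1.66 to 1.74). The ratio for Malat1 was 1.36 times that for Neat1 (1.30 to 1.41, counting error only), and 1.57 times with all reads kept. All windows called in both libraries together had a ratio of 1.64. Among the 734 wide regions the median was 1.90, and 79.4% of them had a lower ratio than Malat1 and 35.3% a lower one than Neat1. Over the 8 other regions among the 10 with the most reads, the ratio ran from 1.958 to 3.21, above that of Neat1 in each.

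Tested window by window with starts collapsed, the Malat1 windows higher in library 2 began 1.8 kb into the gene. Windows called in either library were scaled by the total over windows called in both and compared by an exact two-sided conditional binomial test with Benjamini-Hochberg adjustment over all 410963, at an adjusted p under 0.05. Of all windows tested, 1.27% were higher in library 2 and 1.31% higher in library 1. In Malat1, 14 of 28 windows were higher in library 2 and 0 higher in library 1. All 14 lay among the 16 windows from 5793001 to 5801000, which start 1.8 kb into the gene and reach past its 3′ edge at 5793900. With all reads kept, 19 Malat1 windows were higher in library 2, more than that span holds. The share of all windows was not recorded for that setting, so this count has nothing to be set against. The 4 windows nearest the start, from 5801001 to 5803000, did not pass. In Neat1, 6 of 89 windows were higher in library 2, 3 of them side by side at the summit from 5812001 to 5813500, and 2 were higher in library 1. The ratio was largest in the window from 5813001, with 1.82 RPM in library 1 and 10.3 in library 2. This test compares the 2 libraries and covers counting error only. The median window had 703 reads over both libraries in Malat1 and 271 in Neat1 against 19 in all windows tested, and the test detects smaller ratios where reads are more. Scaled to all nuclear reads, 25 Malat1 windows and 66 Neat1 windows were higher in library 2 (14.4% of all windows) and 0 of either higher in library 1 (0.422%).

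**Figure D3:**
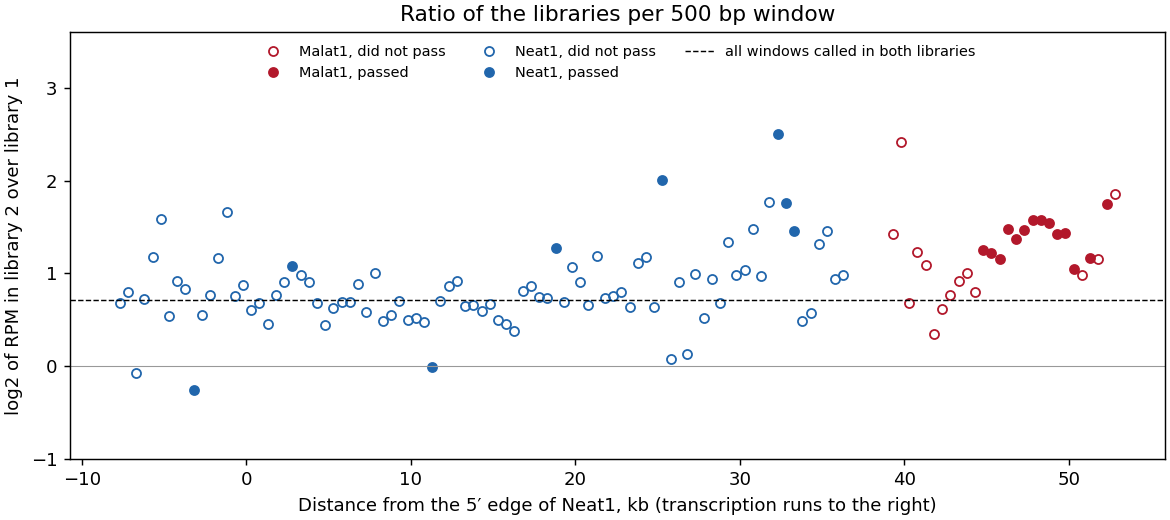
Log2 of RPM in library 2 over RPM in library 1 (y axis) for each 500 bp window of Neat1 and Malat1 against distance from the 5′ edge of Neat1 in kb (x axis). Filled points passed the test between the libraries, the dashed line is the ratio of 1.64 for all windows called in both libraries and the grey line is equality. The 14 filled Malat1 points begin 1.8 kb into the gene. They lie above the dashed line by construction, since that ratio is the scaling of the test.

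Counting each start once removed a larger share of reads in these regions than over the whole nuclear genome. Repeated starts were 35.8% of the Malat1 reads in library 1 (Wilson interval 34.9 to 36.8%) and 39.1% in library 2 (38.4 to 39.9%). For Neat1 they were 27.6% (27.0 to 28.3%) and 20.3% (19.7 to 20.9%). Over all nuclear reads they were 10.1% in library 1 and 4.54% in library 2. Random placement of the same reads within each 500 bp window would repeat 23.2% of starts in library 1 and 30.6% in library 2 for Malat1, and 17.0% and 15.6% for Neat1. The measured shares were above these in both regions and both libraries. Random placement takes every position of a window as equally likely.

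Distinct starts occupied 23.3% of the positions and strands of Malat1 in library 1 and 33.6% in library 2, and in the fullest window 55.6% and 60.2%. In Neat1 they occupied 14.6% and 15.5%, with 56.7% and 53.7% in the fullest window. The fullest windows were not always those with the most reads per start. The Malat1 window from 5801001, the fullest in both libraries, had 1038 reads on 556 starts in library 1 and 1078 on 602 in library 2. The less full window from 5794501 had 643 on 314 and 837 on 388, more reads per start. With all reads kept, Malat1 stood at 522 RPM in library 1 and 1348 in library 2, 1.40 and 1.57 times the collapsed values. Neat1 stood at 918 and 1507 RPM, 1.24 and 1.20 times. The start with the most reads had 13 in library 1 and 11 in library 2 for Malat1, and 9 and 7 for Neat1. Starts with 5 or more reads made up 2.04% and 2.15% of Malat1 starts and 0.863% and 0.290% of Neat1 starts, so few starts were deeply repeated. The Malat1 window from 5802501, which spans the 5′ edge, had 912 reads on 392 starts in library 1 and 864 on 416 in library 2. The other 8 regions among the 10 with the most reads had 11.3 to 46.7% repeated starts in library 1 and 5.34 to 58.4% in library 2.

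**Figure D4:**
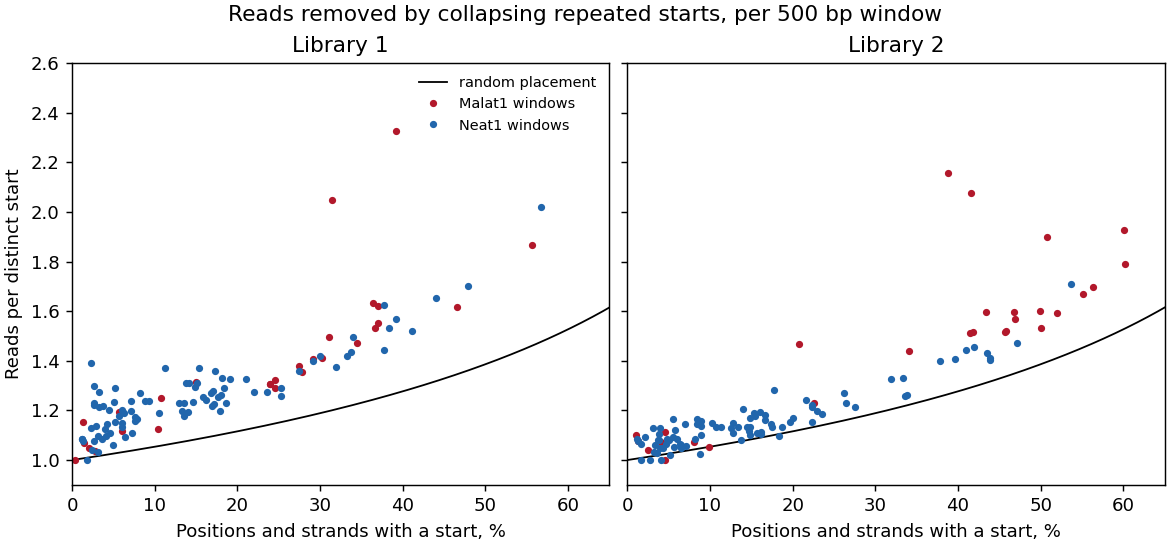
Reads per distinct start (y axis) against the percent of positions and strands that hold a start (x axis), 1 point per 500 bp window of Malat1 or Neat1, for library 1 (left) and library 2 (right). The curve is random placement within a window, and most points lie above it. In each library 2 Malat1 windows lie above 2 reads per start. So does the Neat1 window from 5845001 in library 1, with 1146 reads on 567 starts.

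The split by strand did not enter the choice of the regions. Plus-strand reads made up 48.5% of the Malat1 starts in library 1 (Wilson interval 47.3 to 49.7%) and 49.8% in library 2 (48.8 to 50.8%). For Neat1 they were 49.7% (48.8 to 50.5%) and 51.5% (50.7 to 52.4%). The interval lay below 50% for Malat1 in library 1 and above it for Neat1 in library 2, and included it in the other cases. The most common offset between the strands was 140 and 125 bp in Malat1 (library 1 and library 2) and 110 and 125 bp in Neat1. The longest run without a start on either strand was 349 bp in Malat1 and 271 bp in Neat1 in library 1, and 191 bp and 267 bp in library 2, so no long stretch of either region was without uniquely placed reads. The libraries shared 3649 exact starts in Malat1, 55.9% of those of library 1 and 38.8% of those of library 2, against 2997 from random placement within windows. In Neat1 they shared 3797, 29.3% and 27.6%, against 3329.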

How the data were processed

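The authors deposited 1 list of read alignments per sample, and each value is the signed left-most offset of a read, an other kind of value than a count or signal. The authors used Bowtie on mm8, with its settings e (70), k (2), m (2), n (2) and l (36), per the file headers. The Bowtie version was not stated there. Reads at 1 site and reads at 2 sites are in separate sections, and a read with more sites is not listed.

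Offsets were read as counted from 0 and reads as 36 bases long. Reads with 1 site in the nuclear genome were kept once per start and strand, shifted 60 bp downstream and counted in windows of 500 bp. Background was the mean of the uncalled windows, refined over 3 rounds. Neighbouring called windows were joined across gaps of up to 1 window. The smallest count called was 12 reads in library 1 and 7 in library 2. The calls and the test between libraries were tested on simulated data. Scripts ran in Python 3.11.15 (SciPy 1.17.1, NumPy 2.4.6, figures by matplotlib 3.10.9).

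The members, the windows named (the highest 3, the lowest, summits with at least 2 RPM and none higher within 2 kb, the lowest between summits, the outermost and the gap), motifs and tests were chosen with earlier results of these data known. The edges, the stretches measured from them, single 1 kb bins and windows named for the test between libraries were chosen after their values were seen.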

Additional observations from a re-analysis of the deposited data

Results flagged for a closer look

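Reads placed at 2 sites entered no comparison above. They gave 41 distinct alignments in the Malat1 region in library 1 and 81 in library 2, and 317 and 315 in the Neat1 region, more than the 3 that a count of 0 allows. They made up 0.624% and 0.854% of the distinct alignments of Malat1 and 2.39% and 2.24% of those of Neat1, against 5.40% and 4.57% over the nuclear genome. In Malat1 the window from 5797001 held 32 of the 41 and 48 of the 81. In Neat1 the window from 5823501 held 98 of the 317 and 134 of the 315. A read at 2 sites may come from either, and the other site is not told by the files.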

How the results depend on the processing

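No paired analysis was possible because the study has 1 group. Of 142 recomputed values, 111 stayed within the spread between libraries, their interval or 1.5 times their count. The 111 include the values of each library taken alone, which always fall within that spread and so are no check. Changes of direction were not scored. In library 2 the first 3 kb of Malat1 stood 1.04-fold over 6 to 9 kb with starts collapsed and 0.998-fold with all reads kept. With all reads kept, the gap had 1.32% of the Malat1 density and 2.93% of the Neat1 density, the highest window over the median was 2.31 in Malat1 and 6.71 in Neat1, and the 5′ side of the midpoint of the Neat1 region held 70.5% of its reads against 67.2%. The first 5 kb of Neat1 over 15 to 20 kb was 2.63, and 3.36 with all reads kept, 2.61 with no shift, 2.63 with a shift of 100 bp and 2.64 with reads at 2 sites added. The fold at the mean 5′ edge was 4.80 for Malat1 and 10.4 for Neat1, and 9.01 and 17.7 with all reads kept. It was 4.33 and 6.54 with no shift, and 5.20 and 9.09 with a shift of 100 bp. The edge was held at its main position in each of these. Found again with no shift, the Neat1 edge lay at 5845600 in both libraries, with folds of 9.32 in library 1 and 8.98 in library 2. The ratio of library 2 to library 1 was 2.58 for Malat1 and 1.64 for Neat1 with all reads kept, 1.41 and 1.04 scaled to windows called in both, and 3.80 and 2.80 scaled to background. With windows of 1 kb, 15 of 15 Malat1 and 44 of 45 Neat1 windows were called in both, fewer because windows are wider. Over the genome 142507 such windows were called in both. A local background left 20 Neat1 windows, and 24998 over the genome. Windows higher in library 2 numbered 25 in Malat1 and 66 in Neat1 scaled to all nuclear reads, and 19 in Malat1 and 10 in Neat1 with all reads kept. Neat1 windows higher in library 1 numbered 0 scaled to all nuclear reads, 5 with all reads kept, 0 with no shift and 1 with a shift of 100 bp. The share of all windows that differed was not recorded with all reads kept or with another shift. Corrected for occupancy (starts hidden where positions are already taken), the mean levels were 801 RPM for Malat1 and 1153 RPM for Neat1. The alternatives for the edges and the stretches measured from them were added after seeing the data. Taking the edges by the largest ratio moved the Malat1 5′ edge in library 2 to 5804900 and in library 1 to 5802900. It moved the Malat1 3′ edge to 5793000 in both, 9.9 kb from the 5′ edge in library 1 and 11.9 kb in library 2. The Neat1 3′ edge moved to 5814300 in library 1 and to 5812000 in library 2. The cause of these changes was not tested.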
